A study of Mus musculus with 16 samples.

Results

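The Dlk1-Dio3 domain is an imprinted stretch of distal mouse chromosome 12, and 7 of its genes were described here: Begain, Dlk1, Meg3, Rtl1, Rian, Mirg and Dio3. They were chosen by name, with earlier results of these data known, and where a gene had several entries the one with the highest mean was kept, so that the level itself selected the entry. The 7 genes are 7 of 19338 genes with a symbol in the deposited tables and hold 8 of 20633 entries, since only Meg3 was listed under more than 1 RefSeq transcript. Nuclear RNA-seq, which reads RNA from isolated nuclei and so also catches unspliced transcripts, was carried out in mouse embryonic stem cells (ESCs) in 4 groups of 4 libraries. The RING1Bfl_TAM group was Ring1a-/-;Ring1bfl/fl cells given 800 nM 4-hydroxytamoxifen for 72 h, which deletes Ring1b and leaves cells without the catalytic subunits of PRC1. The PcGDKO_UNT group was an untreated Eed-/-;Ring1a-/-;Ring1bfl/fl line, which lacks a core subunit of PRC2, and the PcGDKO_TAM group was the same line given the drug at the same dose and time. The RING1Bfl_UNT group was untreated Ring1a-/-;Ring1bfl/fl cells, so the reference cells also lack Ring1a. Both RING1Bfl groups were at passages 25 to 35 and both PcGDKO groups at passages 30 to 40, so the passage range went with the Eed genotype. Both Eed-null groups came from 1 clone, and the study's methods describe the 4 libraries of a group as biological replicates, without saying if they were separate cultures. Feeder cells were not used.

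The tables give 1 value per entry that is not itself a comparison, the mean of the normalized read counts. It was identical in the 3 tables (largest difference 0) and therefore belongs to one common set of libraries, taken here to be all 16. It carries no replicate error, and no level of a single library or group was used here, so the levels below describe the 4 groups pooled and none of them shows how a gene answered the loss of PRC1 or PRC2. The depth of each library is unknown. In a pool of this kind, a gene active in 1 group and silent in the others cannot be told apart from a gene active at a lower level in all of them, and fewer cells with a transcript cannot be told apart from less transcript per cell.

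Imprinted genes are transcribed mainly from the copy inherited from one parent. In this domain the protein-coding genes Dlk1, Rtl1 and Dio3 are expressed from the paternal chromosome, and the long noncoding RNAs Meg3, Rian and Mirg, with a large set of microRNAs and small nucleolar RNAs, from the maternal one. The choice is set by a control region between Dlk1 and Meg3 that is methylated on the paternal copy. In ESCs and induced pluripotent cells the domain is known for the variable silencing of Meg3 between lines. Polycomb complexes act at CpG-rich promoters, PRC1 by ubiquitylating histone H2A and PRC2 by methylating histone H3, which is why the CpG content of the start sites is given first.

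The start sites of the domain ranged from CpG-rich at Begain and Dio3 to free of CpG at Rian, with Meg3, Mirg and Dlk1 within the middle range of all windows. Windows of 300 bases, from 250 before to 50 after each start, were taken from RefSeq (GRCm38.p6, the same primary sequence as mm10). Of the 7 genes 6 had a window and Rtl1 was not matched. The Begain window closest to the start of its entry held 46 CpG dinucleotides and 81.3% G and C, and 98.4% of all 32851 windows held fewer. The Dio3 window held 25 CpGs and 69.0% G and C, above 81.6% of windows. Among the noncoding RNAs, Meg3 had 13 CpGs, Mirg had 10 and Rian had none. Dlk1 held 9, close to the median of 7 over all windows. CpG density therefore did not follow the coding or noncoding class as a whole, because Dlk1 lay within the range of the noncoding RNAs.

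**Figure D1:**
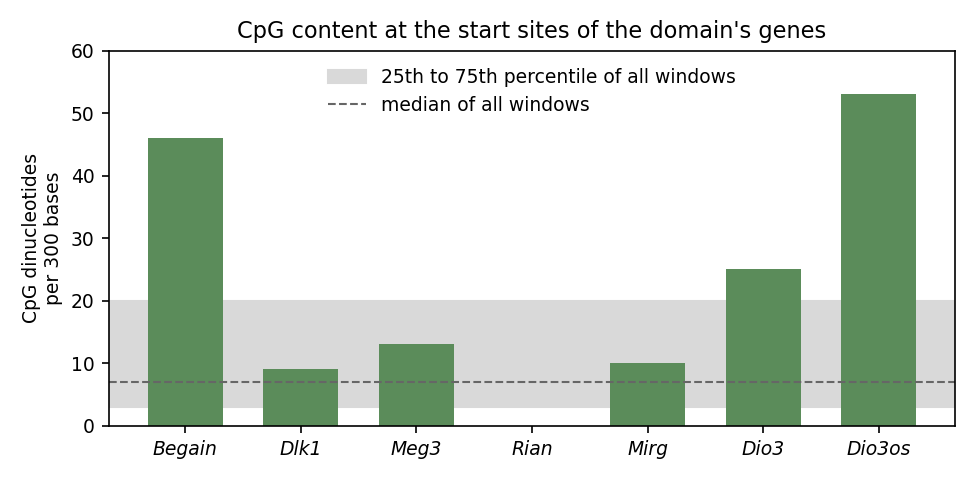
CpG dinucleotides per 300-base window (vertical axis, starting at 0) at the start sites of 6 domain genes and of Dio3os, with the 25th to 75th percentile of all windows as a grey band (3 to 20) and their median of 7 as a dashed line. Begain (46), Dio3 (25) and Dio3os (53) stand above the band, and Rian, with no CpG, below it.

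The windows of Begain, Dio3, Meg3 and Rian are shown because they span the range from the most to the fewest CpGs among the 7 genes. Capitals mark every match, on either strand, to TATAAA (the TATA box), TGACGTCA (the cAMP response element, which reads the same on both strands) or GGGCGG (the GC box). The Begain window is chr12:109068168-109068467 on the minus strand, and the others lie on the plus strand at chr12:110278980-110279279 (Dio3), chr12:109540746-109541045 (Meg3) and chr12:109603695-109603994 (Rian).
Begain: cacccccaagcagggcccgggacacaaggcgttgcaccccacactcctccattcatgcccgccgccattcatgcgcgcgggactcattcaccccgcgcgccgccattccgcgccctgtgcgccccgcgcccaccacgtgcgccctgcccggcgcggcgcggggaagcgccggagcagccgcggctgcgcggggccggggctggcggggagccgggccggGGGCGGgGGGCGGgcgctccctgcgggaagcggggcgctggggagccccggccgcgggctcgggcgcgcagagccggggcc
Dio3: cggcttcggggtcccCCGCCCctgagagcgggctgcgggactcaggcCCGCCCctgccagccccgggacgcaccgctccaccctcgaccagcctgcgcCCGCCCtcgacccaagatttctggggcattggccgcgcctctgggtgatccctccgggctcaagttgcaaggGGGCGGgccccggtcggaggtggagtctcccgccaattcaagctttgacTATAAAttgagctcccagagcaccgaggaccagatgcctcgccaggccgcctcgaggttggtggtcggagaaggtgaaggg
Meg3: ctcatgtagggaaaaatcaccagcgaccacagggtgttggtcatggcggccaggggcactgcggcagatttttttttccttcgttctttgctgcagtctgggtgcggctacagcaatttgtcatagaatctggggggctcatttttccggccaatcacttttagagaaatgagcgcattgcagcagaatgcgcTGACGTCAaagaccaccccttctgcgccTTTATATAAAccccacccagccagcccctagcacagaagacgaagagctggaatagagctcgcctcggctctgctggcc
Rian: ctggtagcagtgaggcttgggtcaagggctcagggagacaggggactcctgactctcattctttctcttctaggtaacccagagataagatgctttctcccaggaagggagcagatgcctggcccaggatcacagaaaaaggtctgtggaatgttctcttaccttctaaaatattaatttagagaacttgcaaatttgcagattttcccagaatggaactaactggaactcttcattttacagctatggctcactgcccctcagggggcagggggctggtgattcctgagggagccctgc

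The Meg3 window held a cAMP response element a short way upstream of a TATA box, and there the forward and reverse matches to TATAAA overlap. Over all 32851 windows, TATAAA or its reverse was found in 13.6% and TGACGTCA in 1.79%. Dio3 held 1 TATA box and 4 GC boxes, and Begain 2 GC boxes and no TATA box, where 35.7% of all windows held a GC box. Rian, Mirg and Dlk1 held none of the 3 motifs in their windows. The Dio3 window is set from a start 162 bases inside the longer GENCODE M21 transcript that gave its length. The 4 other Begain windows held 34 to 42 CpGs, whereas the second Meg3 window, 4393 bases downstream of the start of the entry, held 1. These matches are a description of the letters and not of binding.

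The noncoding part of the domain is a host for small RNAs, none of which had an entry of its own among the entries with RefSeq coordinates. RefSeq annotated 61 microRNA genes between Begain and Dio3. The microRNA sequences used here, counted separately, held 58 hairpins in that stretch, 54 on the plus strand, the strand of Meg3, Rian and Mirg. Of these, 1 plus-strand hairpin lay within Meg3, 13 between Meg3 and Rian, 3 within Rian, 27 between Rian and Mirg and 10 within Mirg. Within the transcript of the Rtl1 entry, which runs on the minus strand, 7 hairpins were found. GENCODE M21 held 23 small nucleolar RNAs in the domain, all on the plus strand, 13 within Rian and 10 between Rian and Mirg. Thus the entries of Meg3, Rian and Mirg are the nearest measure that the tables hold of the transcription units carrying these small RNAs, and the levels of the mature small RNAs themselves were not measured.

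All 28 microRNA genes of a chosen list were matched in RefSeq, with 53 mature arms and 50 different seeds, the bases 2 to 8 through which a microRNA pairs with its targets. Only 3 seeds were shared, each by 2 arms. The arms that share a seed are shown first, with the seed in capitals, because they could pair with the same target sites, and one arm for each host interval follows.
miR-379-3p: uAUGUAACaugguccacuaacu
miR-411-3p: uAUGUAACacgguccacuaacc
miR-376c-5p: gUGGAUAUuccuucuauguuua
miR-376b-5p: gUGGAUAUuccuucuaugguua
miR-494-5p: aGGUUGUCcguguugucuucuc
miR-410-5p: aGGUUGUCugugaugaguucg
miR-770-3p, within Meg3: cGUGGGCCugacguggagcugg
miR-127-3p, antisense to Rtl1: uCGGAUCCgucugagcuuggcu
miR-370-3p, within Rian: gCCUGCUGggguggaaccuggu
miR-134-5p, between Rian and Mirg: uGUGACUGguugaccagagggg
miR-154-3p, within Mirg: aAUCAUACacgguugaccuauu

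The pairs miR-379-3p with miR-411-3p and miR-376c-5p with miR-376b-5p lie between Rian and Mirg. The third pair joins miR-494-5p, in that interval, to miR-410-5p, inside Mirg. miR-485-3p, at chr12:109734946-109734967 on the plus strand, falls inside the window at the start of Mirg itself.

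All 7 genes were listed with a mean above 0, and 6 of the 7 with a mean of at least 10. Rian, the host of small nucleolar RNAs, had the highest mean normalized count at 603, followed by Meg3, a noncoding RNA with growth-restraining activity, at 301. Dlk1, a transmembrane relative of the Notch ligands that restrains adipocyte differentiation, had 174, and Begain, which encodes a synaptic guanylate kinase-associated protein, had 133. The only Dlk1 entry was NR_033813, whose prefix marks a noncoding RefSeq transcript, although the gene is protein-coding. Dio3, the deiodinase that inactivates thyroid hormone, had 64.7, and Mirg, a microRNA host, 51.1. Rtl1, a retrotransposon-derived gene needed in the placenta, had 0.414. Counts grow with the length over which reads are collected, so these means rank the entries and not the genes.

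**Figure D2:**
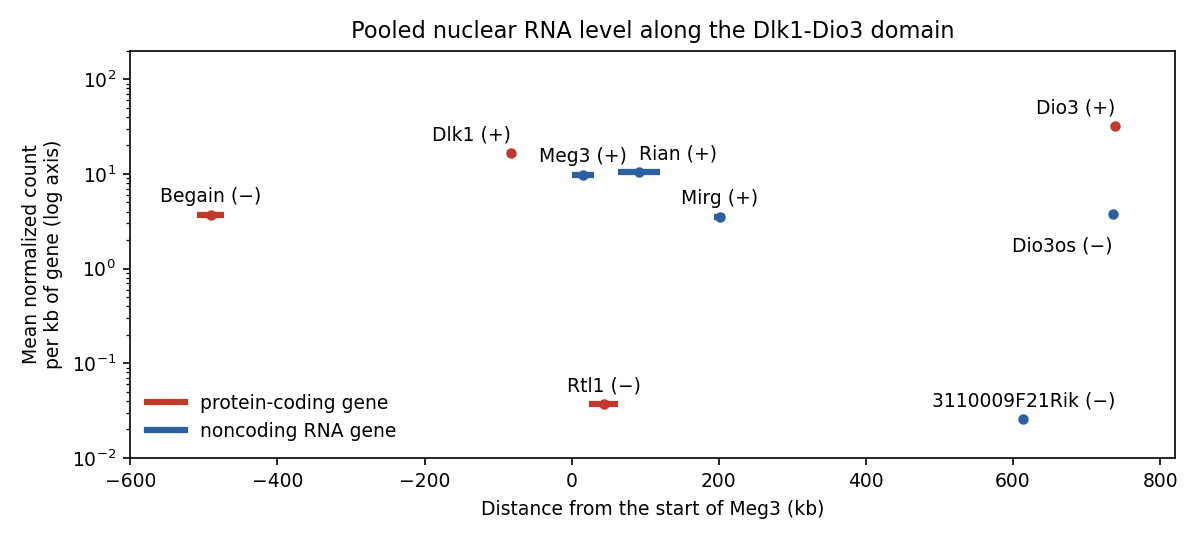
Pooled mean normalized count per kb of gene length, introns included (vertical log axis), against distance from the start of Meg3 in kb, for the 7 domain genes and the 2 other listed genes with RefSeq coordinates between Begain and Dio3. Horizontal bars mark the RefSeq extent of each gene, red for protein-coding and blue for noncoding, with the strand in brackets. The level is taken over the length of the kept entry, which for Rtl1 (11.1 kb) is shorter than its bar. Meg3 and Rian sit side by side at 9.79 and 10.4, and Rtl1 between them at 0.0371.

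Which length applies was looked at in the tables themselves, since the study's text used here does not name the counting program or its settings. The check took 756 genes with exactly 2 entries that had a mean of at least 10 and a GENCODE transcript length. The log2 ratio of the 2 means followed the ratio of their lengths with introns (Spearman's rho 0.797 across genes). It followed the ratio of their exon lengths less closely (rho 0.361). The entries of 1 gene share reads, and genes are not independent replicates. Meg3 was an example. Its kept entry (NR_027652) had a mean of 301 and the other (NR_003633) of 238, a ratio of 1.27. Their lengths with introns had a ratio of 1.17, but their exon lengths, 1896 and 14548 bases, had a ratio of 0.130. Levels are therefore given on both scales, per kb of exons and per kb of gene with introns.

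Per kb of gene with introns, Dio3 had the highest level of the domain at 31.9, Dlk1 had 16.5, Rian 10.4 and Meg3 9.79. Below these came Begain at 3.69, Mirg at 3.53 and Rtl1 at 0.0371. The noncoding RNAs Rian and Meg3 thus differed by a ratio of 1.07, and Begain and Mirg were close to each other, while Meg3 exceeded Mirg by 2.77 times. Dio3 exceeded Dlk1 by 1.93 times and Meg3 by 3.26 times. Without replicate values no spread can be set beside these ratios, so neighbours in this order are not shown to differ.

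Per kb of exons the order changed. Meg3 came first at 159, then Begain at 49.1, Mirg at 39.3, Dlk1 at 37.3, Rian at 33.0, Dio3 at 31.9 and Rtl1 at 0.0651. Meg3 led on this scale through the 1896 bases of exon in its kept entry. The other Meg3 entry, with the longer exons, had 16.3 per kb of exons, against 9.02 per kb of gene. Dio3, which has no intron in its annotated transcript, had the same value on both scales, and the intron-rich Begain, 36.0 kb long with 2.71 kb of exons, differed most after Meg3. For Rian no GENCODE transcript carried its RefSeq number, and the merged exons of the gene, 18.2 kb, were used. The Dlk1 value rests on the 4653 bases of exon of its single, noncoding entry. The place of Rtl1 at the bottom was the same on both scales, and the 6 other genes spanned 4.97-fold per kb of exons and 9.03-fold per kb of gene.

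**Figure D3:**
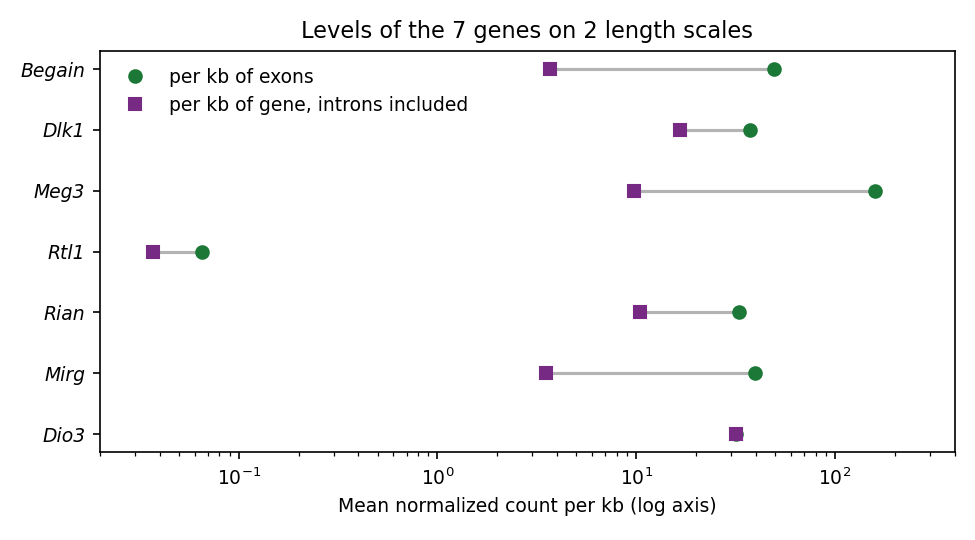
Mean normalized count per kb (horizontal log axis) of the 7 domain genes, per kb of exons (green circles) and per kb of gene with introns (purple squares), each pair joined by a line. Meg3 lies at 159 and 9.79, Dio3 at 31.9 on both scales, and Rtl1 apart from the rest at 0.0651 and 0.0371.

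By the RefSeq extent of the gene, Rtl1 overlaps its neighbours on the opposite strand. It shares 6830 bases with the end of Meg3 and 474 bases with the start of Rian. The GENCODE transcript of its entry, 11.1 kb long at chr12:109589193-109600330, lies between them over the hairpins named above and overlaps neither. The library kit kept the strand of the RNA. The sources used here do not say if the counting used it, or which of these extents was counted. The value of Rtl1 is therefore uncertain, and so are those of the ends of Meg3 and Rian if the RefSeq extent was counted. The mean of 0.414 was near the bottom of all genes: 5.57% of 18359 genes with a mean above 0 had a lower level per kb of gene, and 1.57% a lower level per kb of exons. A mean this low rests on few reads, so these percentages are rough.

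The place of the 6 other genes depended on the length and on which genes were counted. Per kb of gene, 71.5% of genes lay below Dio3, 56.8% below Dlk1, 48.6% below Rian and 47.7% below Meg3. Begain lay above 35.5% and Mirg above 35.2%. Per kb of exons, 60.3% of genes lay below Meg3, and Begain, Mirg, Dlk1, Rian and Dio3 lay above 37.2% to 42.2%. Among the 14456 genes with a mean of at least 10, these 5 lay above only 20.3% to 26.6% per kb of exons, and Meg3 above 49.6%. The median of the 7 genes per kb of gene was 9.79, against 11.2 over all 18359 genes. Per kb of exons it was 37.3, against 87.6 over the same genes, so the distance from the typical gene depended on the length.

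Only 2 further listed genes with RefSeq coordinates lay within the 1249 kb from Begain to Dio3. Entries without such coordinates, among them the 114 named through GENCODE, were not placed here. Dio3os, a noncoding RNA transcribed away from Dio3 on the minus strand, had a mean of 10.4 and a level of 3.74 per kb of gene, so that Dio3 exceeded it 8.52 times, and 4.22 times per kb of exons. Its window held 53 CpGs, above 99.5% of windows. The noncoding RNA 3110009F21Rik, in the 530 kb between Mirg and Dio3, had a mean of 0.164. No gene with RefSeq coordinates was listed in the 77.7 kb between Dlk1 and Meg3, which hold the control region.

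The genes on either side of the domain reached higher levels. Of 11 flanking genes, 8 lay above the median domain gene per kb of gene and 5 above Dio3, and their median was 30.9 per kb of gene. Of all 18359 genes, 9604 lay above the median domain gene and 5236 above Dio3. Per kb of exons, 8 of the 11 flanking genes lay above Meg3, the highest domain gene on that scale, as did 7280 of all genes. The flanking median was then 700, against 37.3 for the domain. Hsp90aa1, the inducible cytosolic chaperone, had 1717 per kb of gene, and Dync1h1, the dynein heavy chain, 157. Yy1, a zinc finger transcription factor upstream of Begain, had 98.0. Degs2 (0.736), Slc25a29 (3.25) and Slc25a47 (3.67) on the Begain side were below Begain. Wdr25, the nearest listed neighbour of Begain, had 11.1 per kb of gene, against 3.69 for Begain.

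Other imprinted genes were mostly higher as well. Of 26 on the list, 24 were in the tables, and 21 of the 24 lay above the median domain gene per kb of gene and 16 above Dio3. The list's median was 50.0 per kb of gene, where the domain had 9.79 and all genes 11.2. Per kb of exons, 20 of the 24 lay above the median domain gene and 15 above Meg3. The medians on that scale were 321 for the list, 37.3 for the domain and 87.6 for all genes. Peg10, like Rtl1 derived from a retrotransposon, had 908 per kb of gene, against 0.0371 for Rtl1. Among the noncoding RNAs, Airn had 80.7, Kcnq1ot1 59.1 and H19 29.8, and each was above Meg3, Rian and Mirg. By RefSeq extent Airn overlaps Igf2r, with a mean of 6803, on the opposite strand. Whether the counting used the strand is not known, so the Airn level is uncertain. Per kb of exons Kcnq1ot1 (59.1) and H19 (34.1) lay below Meg3 (159), and H19 also below Mirg (39.3), so that this order did not hold on that scale. Zim1 (2.65) and Usp29 (0.515) were the 2 listed imprinted genes below Mirg. The lists were chosen with earlier results known, and no test was made of these differences.

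**Figure D4:**
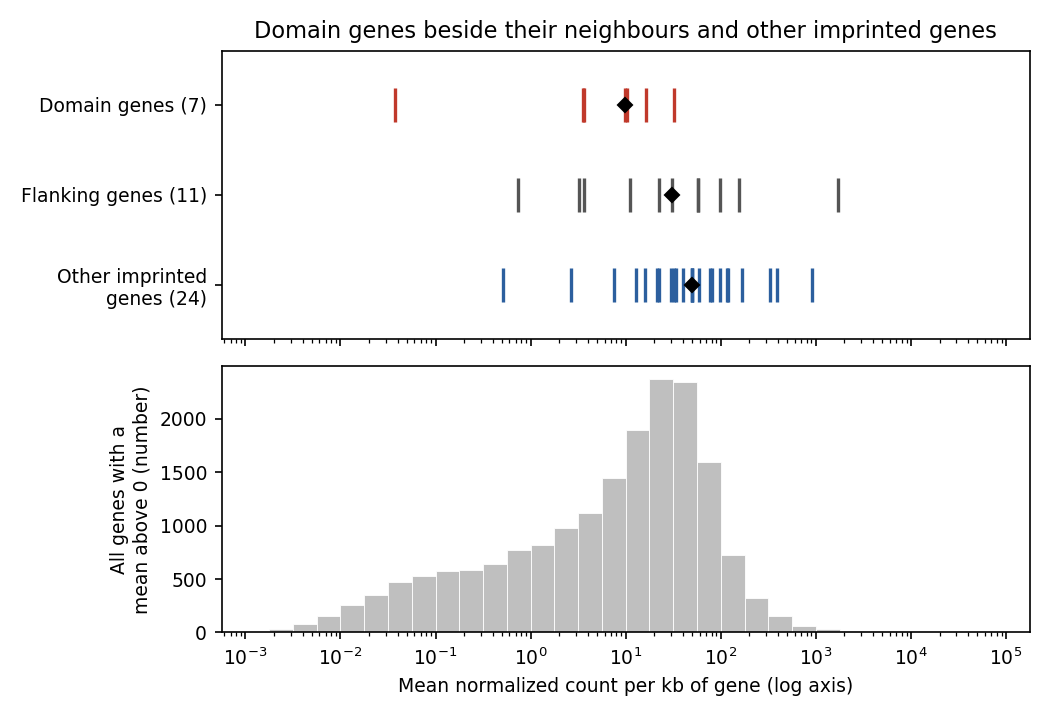
Mean normalized count per kb of gene with introns (horizontal log axis, shared). Top, one tick per gene for the 7 domain genes, 11 flanking genes and 24 other imprinted genes, with the median of each list as a diamond (9.79, 30.9 and 50.0). Bottom, the number of genes per bin among the 18359 with a mean above 0, whose median is 11.2.

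Markers of ESCs were present in the pool, and so were markers of other cell types. Of 10 ESC markers chosen, 9 were listed and Dppa5a was not. All 9 listed ESC markers had means of at least 568, the value of Utf1, with a median of 2113, and the highest was Tfcp2l1 at 14464. Of 6 fibroblast or feeder markers the highest was Thy1 at 128, Col1a2 had 70.3 and Col1a1 51.5, and Col3a1, Postn and Dcn had means of 1.01, 1.36 and 1.11. Primitive endoderm markers had a like median of 2021 over 5 genes. Gata4 (4716), Gata6 (2247) and Pdgfra (2021) had higher means than Pou5f1 (1384), Nanog (1577) and Sox2 (1849). Sox17 (562) and Foxa2 (161) had lower means than these ESC markers. Per kb of gene the median was 67.8 for the primitive endoderm markers and 291 for the ESC markers, and Gata4 had 102, against 291 for Pou5f1. The medians of trophoblast markers (194 over 5 genes) and of neural markers (88.4 over 4) were lower, also per kb of gene (23.4 and 8.18). Single genes overlapped: per kb of gene the trophoblast marker Hand1 (148) exceeded the highest primitive endoderm marker, Sox17 (121). The group from which these reads came was not separated here, and the part of such cells in the levels of the domain was not tested. The targeted genes were listed at pooled means of 18.99 for Ring1 (the gene named Ring1a in the labels), 3208 for Rnf2 (Ring1b) and 2723 for Eed, which for Rnf2 and Eed join libraries with and without the deletion and do not check the labels. All 4 groups are labelled Ring1a-/-, and the Ring1 mean of 18.99, or 4.88 per kb of gene, is a level above 0 in cells labelled as lacking the gene. Of all genes, 38.4% had a lower level per kb of gene. Which part of the gene was deleted is not given in the sources used here.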

How the data were processed

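The data were nuclear RNA-seq of mouse ESCs, 16 libraries in 4 groups of 4. The authors removed ribosomal RNA reads with Bowtie 2, aligned the rest to mm10 with STAR, removed duplicates, and compared groups with DESeq2 on a nonredundant RefSeq gene set, and the counting program and versions are not given in the sources used here. The signal used is the deposited mean of the authors' normalized read counts per entry, scaled between libraries by the authors and printed as their value, with no SD. The other deposited columns hold the authors' own comparisons (log2 fold changes in 2 forms, their standard errors, test statistics, p-values and adjusted p-values), and none of them was used, so no difference between groups is reported. There were 0 columns of single libraries left unused.

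Of 20633 entries 20560 received a symbol, 20446 by their RefSeq number (GRCm38.p6) and 114 through GENCODE M21, and 1 entry per symbol was kept, that with the highest mean. Lengths came from the GENCODE transcript with the RefSeq number of the entry or, where there was none, from the merged exons and RefSeq extent of the gene, for 20457 entries. 897 entries had a mean of 0. Genes named are the 7 members, listed flanking and imprinted genes and every other listed gene with RefSeq coordinates between Begain and Dio3. Members and lists were chosen with earlier results of these data known. Alternatives were the sum over entries, the other tables, both lengths and 2 other sets of genes for the ranks. Tools were Python 3.11.15, pandas 2.3.3 and matplotlib 3.10.9.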

Additional observations from a re-analysis of the deposited data

How the results depend on the processing

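The mean of the other tables gave the same value for all 7 genes, and the sum over entries moved only Meg3, to 538. Per kb of gene with introns in place of exons, the level was 3.69 for Begain, 16.5 for Dlk1, 9.79 for Meg3, 0.0371 for Rtl1, 10.4 for Rian and 3.53 for Mirg, and it did not move for Dio3. The percentage of genes with a lower level per kb of exons was, among genes with a mean of at least 10, 26.6 for Begain, 22.5 for Dlk1, 49.6 for Meg3, 20.7 for Rian, 23.3 for Mirg and 20.3 for Dio3, and Rtl1 was not in that set. Among all genes, those at 0 included, it was 44.8 for Begain, 41.7 for Dlk1, 62.1 for Meg3, 6.06 for Rtl1, 40.4 for Rian, 42.4 for Mirg and 40.1 for Dio3. With lengths including introns, an alternative chosen after seeing the data, it was 35.5 for Begain, 56.8 for Dlk1, 47.7 for Meg3, 5.57 for Rtl1, 48.6 for Rian, 35.2 for Mirg and 71.5 for Dio3. The first 2 of these follow from fewer or more genes in the set, and the third from the length. No paired analysis was possible because the values used are means over pooled libraries, and for the same reason the planned changes of scaling, filter and pseudocount and the leaving out of replicates were not run. Depth per library is unknown, so no counting limit can be given for low means. The mean of Rtl1 rests on few reads.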
